A study of Mus musculus with 13 samples.

Results

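Calb1, Calb2 and Pvalb encode calbindin, calretinin and parvalbumin, small proteins of the EF-hand family that bind calcium in the cytoplasm of neurons. They were followed here in dissociated neurons of the mouse retrosplenial cortex and in brain sections. The 3 genes were selected on their measured values in these same cells and spots, so their levels by cell cluster and by zone are given as a description with no test. The table of cells held 15114 genes, of which Calb1 and Pvalb are 2, and Calb2 was not analysed in the cells. All 3 genes were among the 32285 of the spatial table. The cells were 765 neurons in 11 samples from 3 wild-type B6 mice, every sample carrying the same labels (strain B6, wild type, retrosplenial cortex, neuron). The column names placed each cell at 1 of 3 dissection levels, called Anterior (256 cells), Medium (217 cells) and Posterior (292 cells), and each animal supplied cells at all 3. Cells of many acute slices were pooled before capture, and the labels give neither the age nor the sex of the animals. The spatial data were 2 cryosections of 10 µm of wild-type brain on Visium slides, which count RNA in small tissue spots, called S4 (1022 spots) and S8 (951 spots) here after the columns.

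Calbindin and parvalbumin are buffers: they take up calcium as it enters and shape how long it stays raised in dendrites and axon terminals. Calretinin is a close relative of calbindin. In the cerebral cortex the 3 proteins are best known as labels of GABAergic interneurons, parvalbumin above all for fast-spiking basket and chandelier cells. Calbindin is also made by many excitatory neurons of the superficial layers, and parvalbumin has been described in some excitatory projection neurons. The vesicular glutamate transporter Slc17a7 marks excitatory cortical neurons, whereas Gad1 and Gad2, which make GABA, mark inhibitory ones.

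The total count per cell had a median of 138331, and the total per sample ran from 2306470 to 15974543. Depth differed between animals, with a median per cell of 65843 in animal 1, 132797 in animal 2 and 185995 in animal 3. Every cell held at least 2510 detected genes, and every gene listed had a count in at least 10 cells. In the sections the total was 8436518 counts in S4 and 6389042 in S8, or a median of 8267 and 6705 per spot. The sections shared 162 spot barcodes, which are positions on the slide. Whether the counts of the cells are reads or molecules is not given in the sources used here, so all intervals below cover counting error only. Levels are given as CPM, the counts of a gene scaled by the total count of a summed group of cells or spots. They are not corrected for gene length and are compared here only within a gene and within a table.

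Calb1 was detected in 330 of the 765 cells (43.1%) and Pvalb in 140 (18.3%). Single counts were common for both, so a cell is called clearly positive here at 10 or more counts. Calb1 was clearly positive in 222 cells (29%, exact binomial 95% interval 25.8 to 32.4%), and only 14 further cells lay at 3 to 9 counts, while 94 had 1 or 2. Pvalb was clearly positive in 80 cells (10.5%, interval 8.38 to 12.8%), with 17 cells at 3 to 9 counts and 43 at 1 or 2. The highest count in a cell was 791 for Calb1 and 411 for Pvalb. Both genes thus had many cells at 0 and a long upper tail, with 116 cells at 100 or more counts of Calb1 and 24 at 100 or more of Pvalb.

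The clearly positive cells of the 2 genes were almost entirely separate. Of the 765 cells, 1 was clearly positive for both. Of the 79 other cells with clear Pvalb, Calb1 was at 0 in 61 and at 1 or 2 counts in 18, with none at 3 to 9. Of the 221 other cells with clear Calb1, Pvalb was at 0 in 205 and at 1 or 2 counts in 16, again with none at 3 to 9. The cell with both came from the medium level of animal 2 and held 255 counts of Calb1 and 102 of Pvalb in a total of 364838. That total is within the upper range of the cells, whose highest was 468895, and no doublet caller was run.

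**Figure D1:**
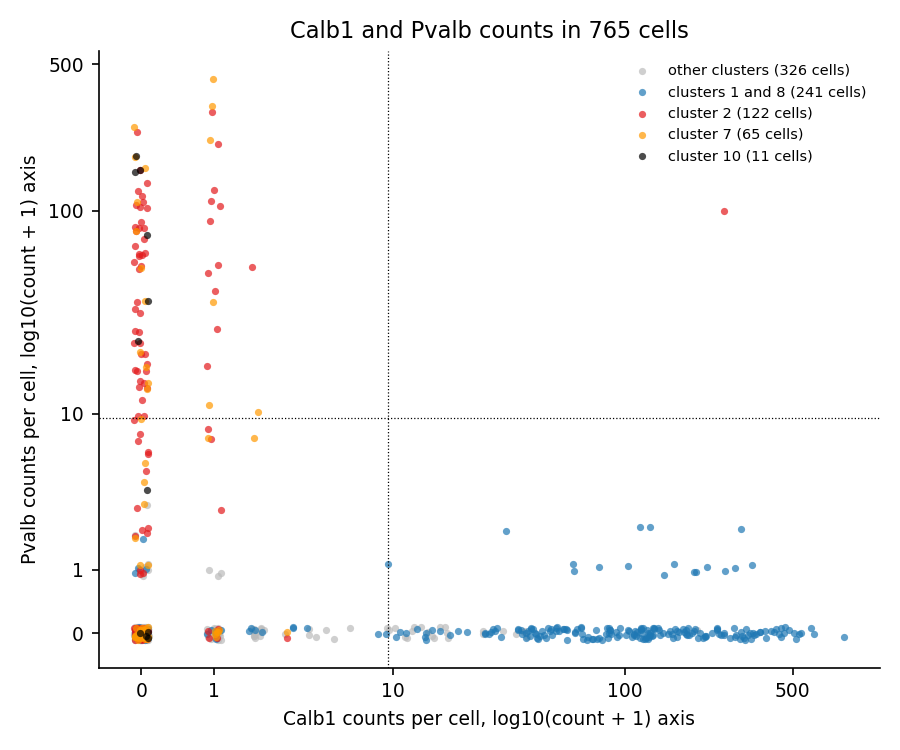
Counts of Calb1 (horizontal) and Pvalb (vertical) in each of the 765 cells, on log10(count + 1) axes with a small random shift of each point, coloured by cell cluster. Dotted lines mark 10 counts; 1 cell lies beyond both lines, 221 beyond the Calb1 line alone and 79 beyond the Pvalb line alone.

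Across the 11 samples Calb1 had 241 ± 113 CPM (SD, n = 11). In animal 1 the samples had 82.1, 190.5 and 139 CPM of Calb1, in animal 2 they had 232, 145, 126 and 297 CPM, and in animal 3 they had 327, 310, 374 and 427 CPM. All 4 samples of animal 3 were above every sample of the other animals. Animal 3 was also the deepest, and its cells were more often in the cluster richest in Calb1, cluster 1 below (105 of 309 cells, against 24 of 152 in animal 1 and 74 of 304 in animal 2). Pvalb had 58.7 ± 40.8 CPM (SD, n = 11). Its samples had 41.3, 18.7 and 72.4 CPM in animal 1, 106, 152, 56.3 and 61.4 CPM in animal 2, and 19.3, 33.7, 21.7 and 62.5 CPM in animal 3. The samples of animal 2 held the 2 highest values, and the ranges of the animals overlapped. As shares of cells, clear Calb1 was found in 27.9 ± 9.55% of a sample's cells and clear Pvalb in 10.3 ± 3.25% (SD, n = 11). With every cell thinned to 50000 counts, which leaves out 61 shallower cells, the shares of cells with any count were 34.3 ± 9.06% for Calb1 and 15.9 ± 3.90% for Pvalb, against 41.2 ± 13.6% and 18.1 ± 4.48% before thinning.

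Cells were grouped into 11 clusters by their other genes, with the members left out of the genes used. Putting Calb1 and Pvalb back gave the same 11 groups (adjusted Rand index 1). Calb1 belonged mainly to clusters 1 and 8. Cluster 1 (203 cells) was led by Calb1, Penk, which encodes the precursor of the enkephalin peptides, and Ddit4l. In it 177 cells (87.2%) were clearly positive and Calb1 had 919 ± 202 CPM over sample sums of 5 or more cells (SD, n = 11, 529 to 1169). Cluster 8 (38 cells), led by Calb1, Ddit4l and Penk, had 21 clearly positive cells (55.3%) and 499 CPM in the sum of its cells, whose median total of 77922 was the lowest of the clusters. The remaining clear cells were 13 in cluster 4, 10 in cluster 3 and 1 in cluster 2. Cluster 4 (74 cells) is called layer 6 intratelencephalic-like here, since Osr1, Oprk1, Car12 and Penk were all highest in it, and it had 41.5 CPM of Calb1. Cluster 3 (76 cells), led by C1ql2, Crym and Qrfpr and made up of posterior cells alone, had 26.2 CPM. With cells thinned to 50000 counts, clear Calb1 cells made up 86.4% of cluster 1 and 48.5% of cluster 8, and their share went from 17.6% to 5.97% in cluster 4 and from 13.2% to 2.70% in cluster 3.

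Low counts of Calb1 were also found in clusters with no clear Calb1 cell. Cluster 5 (71 cells) is called layer 6 corticothalamic-like, with Rprm, Syt6 and Foxp2 highest in it, while Crym, also on that list, was highest in cluster 3. In clusters 5, 6 and 7, 12.7%, 20% and 23.1% of cells had a count of Calb1, none had more than 3, and the summed level was 1.84, 1.42 and 1.28 CPM. Cluster 7 had the highest median total per cell (223781) and the highest of these shares. Low expression and stray counts cannot be told apart at such values, and no empty-well control was used. In cluster 2 the summed level of 12 CPM came mostly from the double-positive cell: 255 of the 278 Calb1 counts of its 122 cells were in that cell, and the sample sums had a median of 0.585 CPM. Cluster 10 (11 cells) had no Calb1 count in a total of 1207720, which allows up to 2.48 CPM (3 counts).

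Pvalb was clearly positive in 3 clusters and in no cell of the other 8. Cluster 2 (122 cells; leading genes Thsd7a, Pygm and Car4) held 56 of the 80 clear cells, cluster 7 (65 cells; C1ql2, Pvalb and Nrtn) held 18, and cluster 10 (11 cells; Pvalb, Kcnip1 and Nxph1) held 6. Clear cells made up 45.9% of cluster 2, 27.7% of cluster 7 and 54.5% of cluster 10, with exact intervals of 36.8 to 55.2%, 17.3 to 40.2% and 23.4 to 83.3%. With cells thinned to 50000 counts these shares were 29.6%, 17.5% and 55.6%. In sample sums of 5 or more cells, Pvalb had 173 ± 99.4 CPM in cluster 2 (SD, n = 11, 44.5 to 366) and 135 ± 163 CPM in cluster 7 (SD, n = 7, 13.9 to 468). Cluster 10 had too few cells for a sum per sample, and all its cells together had 517 CPM. In the other 8 clusters the level was 0.918 CPM or less. No cell there had more than 3 Pvalb counts.

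**Figure D2:**
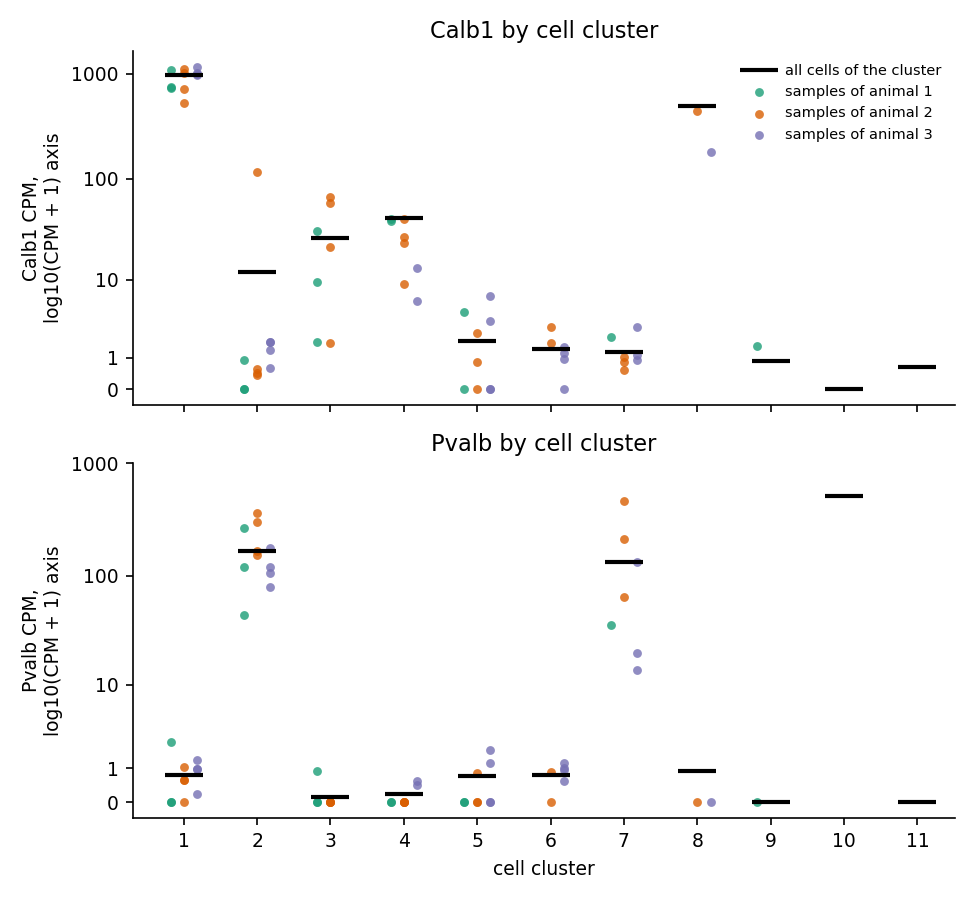
CPM of Calb1 (top) and Pvalb (bottom) in 11 cell clusters on log10(CPM + 1) axes. Points are sums of 5 or more cells of a sample, coloured by animal, and black bars are sums of all cells of a cluster; Calb1 is highest in cluster 1 (988 CPM) and Pvalb in cluster 10 (517 CPM).

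The cells with clear Pvalb held counts of excitatory marker genes, though not of all of them at the same level as other cells. All 80 had a count of Slc17a7, with a median of 20.5 counts, and 66 had 10 or more. All 80 also had Camk2a, a kinase subunit abundant in excitatory neurons. These shares do not set the 80 cells apart. Slc17a7 had a count in 756 of all 765 cells. Camk2a had one in all 49 cells of cluster 2 and all 39 of cluster 7 with no Pvalb count. Neurod6 and Tbr1, transcription factors of excitatory neurons, were less frequent: Neurod6 had a count in 25 of the 80 cells (31.3%) and in 61.9% of the 464 cells with neither clear Calb1 nor clear Pvalb, and Tbr1 in 20 (25%) and in 54.3%. The 8 excitatory markers together summed to 1014 CPM in cells with clear Pvalb and 1335 CPM in cells with neither. Gad1 was found in 5 of the 80 cells and Gad2 in 2, in each case as 1 count. Those shares were 6.25% and 2.50%, against 5.82% and 1.72% in the 464 cells with neither clear Calb1 nor clear Pvalb, although cells with clear Pvalb were deeper (median total 222639 against 129231). Of the 12 GABAergic marker genes 3 were measured in the cells. Their summed level was 6.70 CPM in cells with clear Pvalb, 0.777 CPM in cells with clear Calb1 and 0.885 CPM in cells with neither, and per cell the sum ran from 0 to 34, 0 to 2 and 0 to 4 counts. Of the 756 cells with a count of Slc17a7, 80 were clearly positive for Pvalb (10.6%), which in the samples was 10.5 ± 3.31% (SD, n = 11, 6.67 to 16%). Of the 9 cells with no Slc17a7 count, none was, which allows a share of up to 33.6% (exact binomial upper bound).

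Genes known from fast-spiking parvalbumin interneurons were present in part. Of 10 such genes 9 were measured, and all but Btbd11 had a count in these cells. Cplx1, a complexin of fast-releasing synapses, had 10 or more counts in all 80 cells and in 96.8% of the 464 cells with neither gene. Syt2, a calcium sensor of fast synaptic release, had a count in 50 of the 80 cells (62.5%) and in 70 of the 464 (15.1%). Nefh, the heavy neurofilament, had a count in 55 of the 80 (68.8%) and in 182 of the 464 (39.2%). Kcnc1, a potassium channel of fast-firing neurons, had a count in 53.8% and in 54.1%. Tac1 was found in 3 of the 80 cells and Cox6a2 in 5. Ank1 had a count in 27 of the 80 (33.8%) and in 53 of the 464 (11.4%), and Kcnc2 in 30 (37.5%) and in 89 (19.2%). Of the other interneuron markers measured, Sst was found in 5 of the 80 cells with at most 2 counts and Npy in 6 with at most 1, while Cck, which excitatory cells also express, had 380 CPM against 2173 CPM in cells with neither gene. Among genes of other lists, Tshz2, a transcription factor of retrosplenial excitatory neurons, had 10 or more counts in all 80 cells and in 65.5% of the 464. Of the 4 layer 5 extratelencephalic markers, Parm1 had 556 CPM in cells with clear Pvalb and 243 CPM in cells with neither, while Fezf2 had 87.2 and 125 CPM, Bcl11b 83.3 and 191 CPM, and Chst8 43.5 and 54.8 CPM.

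Counts of glial genes were also present in these cells. The 5 oligodendrocyte markers summed to 204 CPM in cells with clear Pvalb, 115 CPM with clear Calb1 and 144 CPM with neither. The 5 astrocyte markers summed to 177, 77.2 and 128 CPM in the same order. Their part in the levels of the members was not tested.

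**Figure D3:**
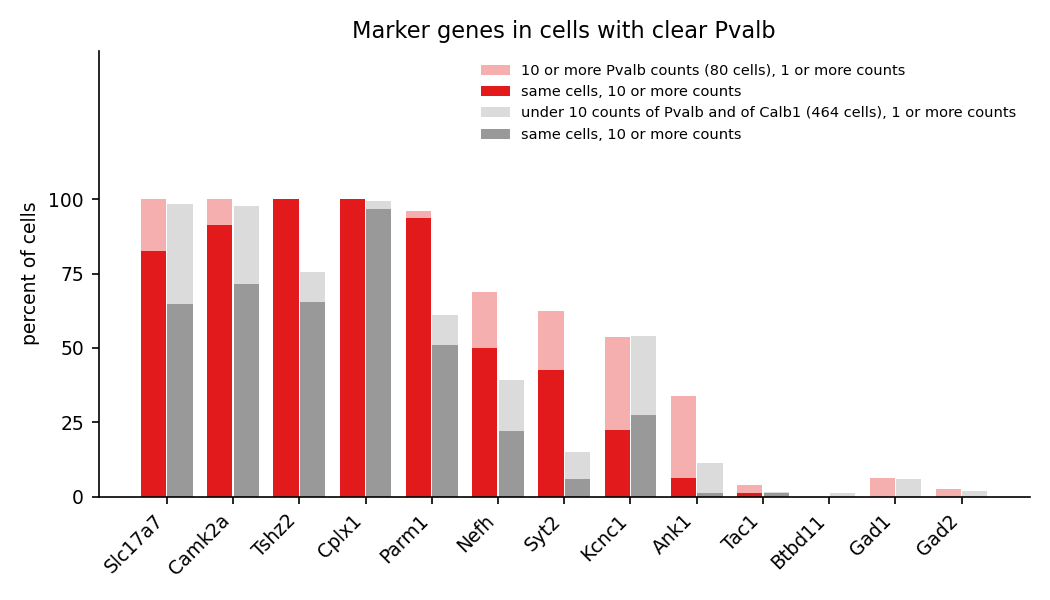
Percent of cells with 1 or more counts (pale) and with 10 or more counts (full colour) of 13 marker genes, in the 80 cells with 10 or more Pvalb counts (red) and in 464 cells under 10 counts of both Pvalb and Calb1 (grey). Slc17a7 and Camk2a reach 100% in the red cells at 1 or more counts, and Gad1 and Gad2 stay at 6.25% and 2.50%.

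Within a cluster, cells with and without Pvalb differed in some of these genes. In cluster 7 Syt2 had 265 CPM in the 18 cells with clear Pvalb and 60.4 CPM in the 39 cells with none. Animal by animal, Syt2 had 180, 354 and 174 CPM in the cells with clear Pvalb of animals 1, 2 and 3. It had 107, 66.3 and 51.0 CPM in the cells without, so it was higher in 3 of 3 animals. These values rest on 3, 9 and 6 cells with clear Pvalb and on 6, 13 and 20 cells without. Nefh had 462 CPM against 155 CPM in the same cells, with 358, 623 and 286 CPM against 151, 183 and 137 CPM in the 3 animals. The median totals of these cells were close, 239819 and 228289 counts. In cluster 2 Syt2 had 33.4 CPM in the 56 cells with clear Pvalb and 9.16 CPM in the 49 cells with none. In the same order, Tshz2 had 810.5 and 837 CPM, Nefh 47.4 and 30.9 CPM and Kcnc1 31.1 and 43.3 CPM. Tshz2 went the other way within each of animals 1, 2 and 3, with 1149 and 1089, 793 and 790, and 792 and 786 CPM. In animal 2 Nefh and Kcnc1 also went the other way in this cluster, with 50.1 and 54.4 CPM and with 28.9 and 21.3 CPM. The cells of cluster 2 with clear Pvalb were deeper, with a median total of 234960 against 135042. Since the cells were split on Pvalb after its values were seen, these differences carry no test.

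The genes were also compared between dissection levels. Values by level were in view when the genes were chosen, so these comparisons are not independent of that choice. Counts were summed per animal and level, and the levels were compared with edgeR's quasi-likelihood test with the animal as a block, over 13628 genes with Benjamini-Hochberg adjustment. Calls needed an adjusted p under 0.05 together with a log2 difference of 1 or more in either direction. Posterior against anterior called 14 genes (0.103%), 11 higher and 3 lower, and without the animal block 1. Medium against anterior called 1 gene (0.00734%). Posterior against medium called 0 genes (0%), with 866 at an unadjusted p under 0.05 and 96 calls by DESeq2. The genes called lower included Trf and Ptgds in posterior cells, and the call in medium cells was Ptgds, also lower. Both are known from oligodendrocytes or meninges and were named after their values were seen. Neither Calb1 nor Pvalb was called in any comparison.

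Calb1 had 336, 187 and 550 CPM at the anterior level in animals 1, 2 and 3, then 9.99, 173 and 300 CPM at the medium level and 50.2, 277 and 200 CPM at the posterior level. The anterior value was above the medium value in 3 of 3 animals and above the posterior value in animals 1 and 3, but the values of the 3 levels overlapped. Medium against anterior, Calb1 had 161 ± 146 against 364 ± 189 CPM (SD, n = 3 animals), a log2 difference of -1.74 (SE 0.70, edgeR adjusted p = 0.928). Posterior against anterior it had 176 ± 114 against 364 ± 189 CPM, a log2 difference of -1.41 (SE 0.68, edgeR adjusted p = 0.889). Posterior against medium the log2 difference was 0.32 (SE 0.65, edgeR adjusted p = 0.944). The lowest value, that of the medium level of animal 1, rested on 35 cells with a median total of 38259, against 72761 at the anterior level of that animal. Leaving out animal 1 moved the first log2 difference to -0.58 and the second to -0.44, and leaving out animal 2 moved the second to -2.27. The third was 0.14, 0.15 and 0.95 without animals 1, 2 and 3.

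Pvalb had 29.9, 119 and 24.1 CPM at the anterior level in animals 1, 2 and 3, then 150, 124 and 57.1 CPM at the medium level and 14, 0.0871 and 27.7 CPM at the posterior level. In each animal the medium level was the highest, though in animal 2 it was close to the anterior value. The medium value of animal 1 rested on 225 Pvalb counts in 35 cells, 4 of them clearly positive, with a median total of 38259. Its samples 1, 2 and 3 had 208, 4.14 and 240 CPM there. No posterior value reached the lowest medium value. Posterior against medium, Pvalb had 14.1 ± 14 against 108 ± 44.5 CPM (SD, n = 3 animals), a log2 difference of -2.77 (SE 1.11, unadjusted p = 0.0314, edgeR adjusted p = 0.778). Medium against anterior it had 108 ± 44.5 against 58.1 ± 53.1 CPM, a log2 difference of 0.94 (SE 1.01, edgeR adjusted p = 0.934). Posterior against anterior the log2 difference was -1.84 (SE 1.16, edgeR adjusted p = 1.00), lower in 2 of 3 animals. Without animal 3 the posterior against medium value was -4.54. The medium against anterior value was 0.38 without animal 1 and 1.79 without animal 2, and the posterior against anterior value was -0.30 without animal 2 and -3.86 without animal 3. With each of the 11 samples summed separately and used as the block, the posterior against medium log2 difference was -2.46 (edgeR adjusted p = 0.195). Pvalb was lower at the posterior than at the medium level in 10 of those 11 samples. The samples came from 3 animals, so they are not 11 independent replicates.

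Such sums mix the level per cell with the number of cells of each cluster, and the 2 cannot be told apart in them. In animal 2, the posterior level held 1 Pvalb count in 11476920, and 4 of its 109 cells were in clusters 2, 7 and 10, against 40 of 106 at the anterior and 26 of 89 at the medium level. In animal 3 the posterior level had 44 of 111 cells in those clusters, more than the 15 of 105 at the anterior and 25 of 93 at the medium level, yet 25% of them were clearly positive for Pvalb against 53.3% and 56.0%. In animal 1 the clear shares of these clusters were 33.3%, 28.6% and 19.0% from anterior to posterior, of 9, 14 and 21 cells. For Calb1, clusters 1 and 8 made up 17 of 45 anterior, 6 of 35 medium and 3 of 72 posterior cells of animal 1. The same clusters made up 28 of 106, 27 of 89 and 38 of 109 cells in animal 2 and 55 of 105, 40 of 93 and 27 of 111 in animal 3. At the posterior level of animal 2, 13 of the 45 clear Calb1 cells lay outside clusters 1 and 8.

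Within a cluster the level of Calb1 in cluster 1 was steady at the anterior level, with 1028, 1000 and 1095 CPM in animals 1, 2 and 3. At the medium level it had 56.0, 662 and 967 CPM. That was 570 ± 474 against 1063 ± 50.2 CPM (SD, n = 3 animals), lower in 3 of 3, with a log2 difference of -1.32 (SE 0.58, edgeR adjusted p = 1.00). None of 10567 genes was called in this comparison (0%), with 191 at an unadjusted p under 0.05 and 4 calls by DESeq2. The value of animal 1 came from 6 cells with 14 Calb1 counts in a total of 250042, and their median total of 39993 was below the 70162 of its anterior cells. Without animal 1 the log2 difference was -0.39, and without animal 3 it was -2.18 with an edgeR adjusted p of 0.000816, which passes the threshold. At the posterior level, cluster 1 had 929 CPM in 26 cells of animal 2 and 1002 CPM in 25 cells of animal 3, while animal 1 had 2 cells. In cluster 8, the 11 medium cells of animal 3 had no Calb1 count in a total of 719275, which allows up to 4.17 CPM, whereas its 4 anterior cells had 856 CPM.

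In cluster 4, Calb1 had 49.4 ± 24.4 CPM at the posterior and 42.0 ± 40.1 CPM at the anterior level (SD, n = 3 animals), a log2 difference of 0.69 (SE 1.22, edgeR adjusted p = 1.00), where 1 of 8729 genes was called (0.0115%). It was higher in 1 of 3 animals, and without animal 2 the log2 difference was -0.76. In cluster 2, Pvalb had 112, 270 and 180 CPM at the anterior level of animals 1, 2 and 3 and 278, 205 and 108 CPM at the medium level. The means were 190 ± 80.4 and 196 ± 81.5 CPM (SD, n = 3 animals), a log2 difference of -0.03 for medium against anterior (SE 0.35, edgeR adjusted p = 1.00). None of 10237 genes was called (0%), with 253 at an unadjusted p under 0.05 and 0 calls by DESeq2. In cluster 5, where neither gene passed the filter on low counts, medium against anterior called 0 of 8625 genes (0%), with 196 at an unadjusted p under 0.05 and 0 calls by DESeq2.

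The posterior cells of cluster 2 were compared in a fit added after the data were seen, because animal 2 had 3 of them. There Pvalb had 61.7, 0 and 105 CPM in animals 1, 2 and 3, the 0 allowing up to 8.26 CPM. The groups were 56.7 ± 54.0 against 192 ± 80.8 CPM at the anterior level (SD, n = 3 animals), lower in 3 of 3, with a log2 difference of -1.91 (SE 0.92, edgeR adjusted p = 1.00). None of 9618 genes was called (0%), with 202 at an unadjusted p under 0.05, and DESeq2 was not run on this fit. In cluster 7, the 23 posterior cells of animal 3 had 6.51 CPM of Pvalb, and the 4 medium cells of that animal had 241 CPM. The posterior sums of animals 1 and 2 in that cluster held 0 Pvalb counts in 4 cells and 1 cell.

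**Figure D4:**
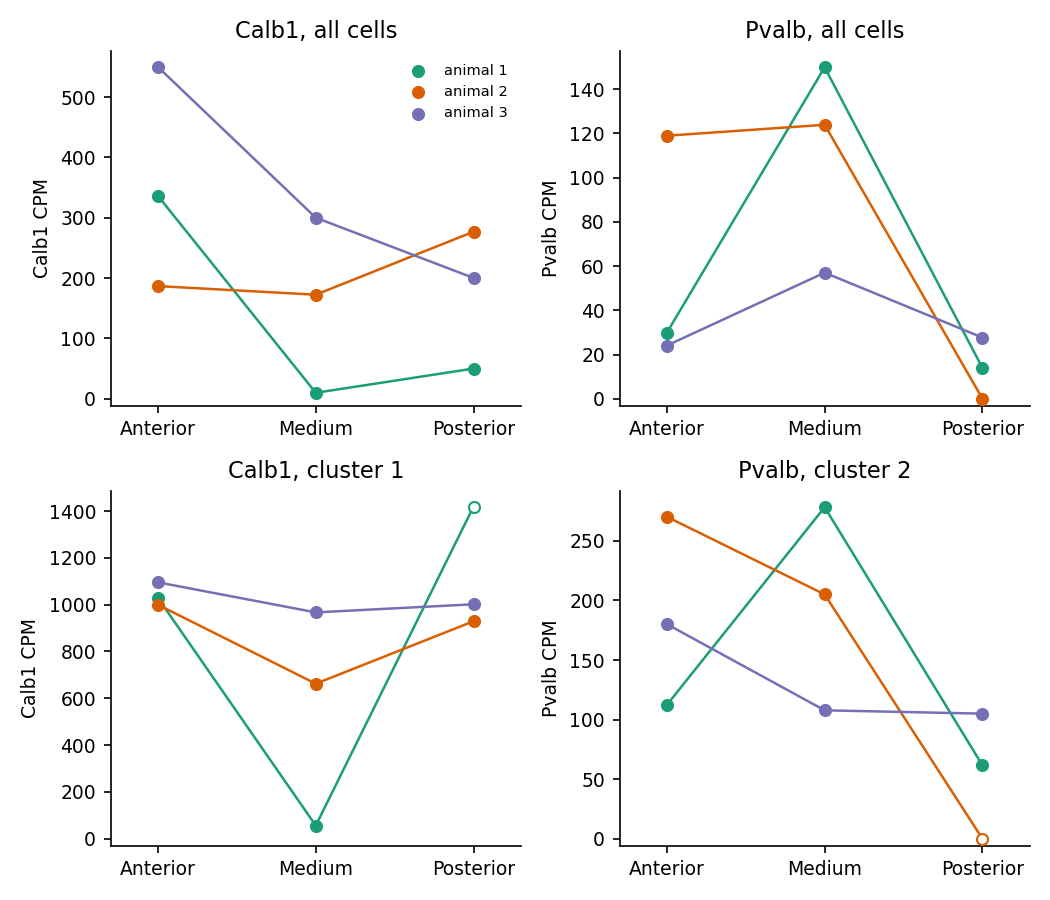
CPM of Calb1 (left) and Pvalb (right) at the 3 dissection levels in all cells (top) and in cluster 1 for Calb1 and cluster 2 for Pvalb (bottom). Each line is 1 animal and open circles are sums of under 5 cells. Pvalb in all cells is highest at the medium level in 3 of 3 animals, by little in animal 2 (124 against 119 CPM at the anterior level). Calb1 in cluster 1 is at 56.0 CPM in the medium cells of animal 1.

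Other EF-hand genes were set beside the members. Of a list of 47, 40 were measured in the cells, and Calm2 and Hpca, which encode a calmodulin and hippocalcin, were among the 3 of highest CPM (3919 and 1464 CPM, not corrected for length). None of the 39 tested was called between levels in any comparison of all cells. Posterior against anterior, 10 of the 39 had an unadjusted p under 0.05, against 5.85% of all genes, and the median log2 difference was -0.21 against 0.00 for all genes. For medium against anterior the count was 4 of 39 with a median of -0.12, and for posterior against medium it was 5 of 39 with a median of -0.13, where 4.20% and 6.35% of all genes had such a p.

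The unevenness of Calb1 and Pvalb between clusters was set beside that list as a description. Both genes were chosen on their values in these same cells, so their high ratios are no independent finding. The ratio of the highest to the median cluster was taken over 9 clusters of 20 or more cells, with 1 CPM added to each level. It was 76.3 for Calb1 and 96.3 for Pvalb. The median cluster had 0.757 CPM of Pvalb, so that ratio leans on the 1 CPM added. Of 32 list genes at 10 CPM or more, 8 had a ratio of at least 4 (25%), against 305 of 8794 genes of that level (3.47%). Those 8, named after their values were seen, were S100a6 (23.1, highest in cluster 1), Necab2 (16.1, cluster 2), S100a10 (10.4, cluster 6), Tesc (8.19, cluster 4), Hpcal1 (5.91, cluster 2), Kcnip2 (4.72, cluster 1), Rcn1 (4.56, cluster 3) and Ncald (4.02, cluster 5). Among these 9 clusters, S100a6 and Kcnip2 thus were highest in the same cluster as Calb1. Necab2 and Hpcal1 were highest in the cluster that held most of the cells with clear Pvalb. Over all clusters, Hpcal1 was highest in cluster 11, which had 11 cells and was outside the 9 (357 CPM, against 178 CPM in cluster 2).

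The genes most like each member were found from Pearson's r of log2(CPM + 1) over 26 sums of a cluster and an animal, among 12169 genes. The points share animals, libraries and depth, so r is a description. For Calb1 they were Pcdh20 (r = 0.87), a protocadherin, Ccbp2 (0.85), Lpl (0.85), which encodes lipoprotein lipase, Fkbp1a (0.84) and Stard8 (0.83). For Pvalb they were Ldhb (0.83), a subunit of lactate dehydrogenase, Clstn3 (0.83), a synaptic calsyntenin, Birc5 (0.81), 1700024P16Rik (0.80) and Anxa5 (0.78), a calcium-dependent membrane-binding protein. The r between Calb1 and Pvalb over the same sums was -0.35. By Spearman's rho, 1 of the 5 genes for Calb1 and 2 of the 5 for Pvalb were again among the 5 highest.

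In the sections all 3 genes could be measured. Calb1 had 210 CPM in S4 and 164 CPM in S8, Calb2 had 35.1 and 37.4 CPM, and Pvalb had 173 and 121 CPM. A count was found in 60.3% and 50.6% of spots for Calb1, in 15.8% and 14% for Calb2 and in 53.4% and 38.4% for Pvalb. S4 was the deeper section, and these shares are not corrected for that. A spot can hold several cells, so spots were grouped by their other genes into 10 zones, each gene being centred within its section, and zones are named by number and leading genes alone.

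Calb2 was concentrated in zone 4 of both sections. Zone 4 was led by Nnat, Calb2, Dcn and Nr2f2, with Trh, the precursor of thyrotropin-releasing hormone, and Dlk1 also among its leading genes. It held 206 CPM of Calb2 in S4 (exact Poisson 95% interval 177 to 238) and 151 CPM in S8 (126 to 178). With spots clustered without centring, the region nearest to zone 4 had 105 CPM in S4 and 157 CPM in S8. In the other zones the level was 7.82 to 24.8 CPM in S4 and 6.09 to 71.3 CPM in S8, the last in zone 9, which was led by haemoglobin genes. In zone 4, 63 of 117 spots of S4 and 60 of 138 of S8 had a count of Calb2, with at most 11 and 10 counts. The sum of spots over that zone was 179 of the 296 Calb2 counts of S4 and 135 of the 239 of S8.

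Calb1 was high in zones 3, 4 and 10 and low in zones 2, 5 and 6. Zone 3, led by Rasgrf2, Lamp5 and Cux2, genes of superficial cortical layers, had 379 CPM of Calb1 in S4 (interval 346 to 415) and 318 CPM in S8 (281 to 358). Zone 4 had 423 and 298 CPM. Zone 10, led by Penk and Wfs1 and made up of 51 spots of S4 alone, had 450 CPM (397 to 509), with a count in 51 of 51 spots. Zone 2, led by Tshz2, Nrep and a haemoglobin gene, had the lowest level, with 39.1 and 35.0 CPM. Zone 5, led by Ighm, Trbc2 and Gadd45a, and zone 6, led by Myl4, Pcp4 and Fezf2, had 45.6 and 51.4 CPM in S4 and 48.0 and 63.9 CPM in S8. The order of zones 2, 5 and 6 was not resolved, since their intervals overlapped in each section.

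Pvalb had a different order of zones. It was highest in zone 2, with 335 CPM in S4 (interval 300 to 373) and 280 CPM in S8 (247 to 316). Zone 8, led by Rorb, a gene of layer 4, had 323 and 201 CPM, and zone 6 had 284 and 151 CPM. The intervals of zones 2, 6 and 8 overlapped in S4, and in S8 that of zone 2 was above the other 2. Zone 4 had the lowest level, with 40.2 and 22.3 CPM, and zone 1, led by Nnat, Sst and Nr4a2, had 56.2 and 38.5 CPM. The zone with the lowest Calb1 level of each section, zone 2, was thus the one with the highest Pvalb level. Zone 2 was also the zone of highest Tshz2, at 269.6 CPM in S4 and 243 CPM in S8. The other zones had at most 36.9 and 32.8 CPM. In the cells, Tshz2 was not particular to clusters with clear Pvalb. It was high in cluster 8 (1137 CPM) and cluster 1 (550 CPM), which had no such cell, and low in cluster 4 (15.2 CPM). Which cells gave the Pvalb counts of zone 2 was not tested.

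**Figure D5:**
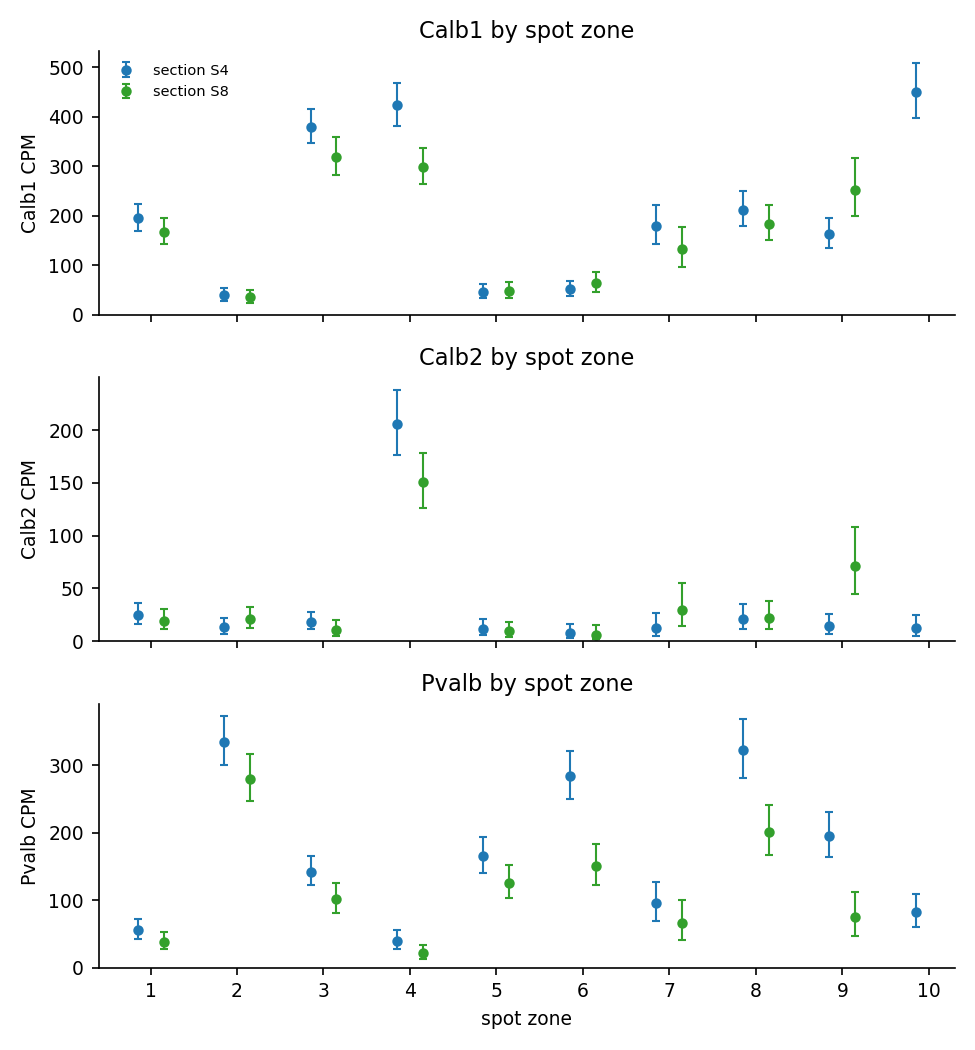
CPM of Calb1, Calb2 and Pvalb in the zones of section S4 (blue) and S8 (green), with exact Poisson 95% intervals that cover counting error only. Zone 10 was present in S4 alone; Calb2 stands at 206 and 151 CPM in zone 4, and Pvalb is highest and Calb1 lowest in zone 2 of both sections.

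Spots were also split by their summed counts of Gad1, Gad2 and Slc32a1, the vesicular GABA transporter, a split chosen after the data were seen. With 0, with 1 or 2 and with 3 or more such counts, Pvalb had 84.7, 116 and 242 CPM in S4 and 60.3, 92.1 and 187 CPM in S8. In zone 2 the values were 145, 253 and 425 CPM in S4 and 127, 204 and 368 CPM in S8. The spots with more of these counts were also deeper, with median totals of 5128, 6582 and 7868 in zone 2 of S4. Calb1 in zone 2 had 22.3, 52.8 and 32.1 CPM in S4 and 38.2, 31.8 and 37.0 CPM in S8, with overlapping intervals. In zone 4, Pvalb had 9.69, 44.9 and 43.7 CPM over the same split in S4, from 1, 18 and 16 counts, and 24.2, 21.8 and 21.8 CPM in S8. In zone 6 it had 80.4, 163 and 403 CPM in S4 and 68.1, 127 and 192 CPM in S8. Zone 3 showed no stepwise rise, with 111, 109 and 174 CPM in S4 and 91.7, 46.3 and 186 CPM in S8. The 14 spots of zone 2 in S8 with none of the 3 GABAergic genes still held 10 Pvalb counts, in 6 spots, and the 18 such spots of S4 held 13, in 8 spots. Whether they came from excitatory cells or from GABAergic cells whose marker RNA went uncounted cannot be told apart in spots.

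Pairs of the genes in the same spot were counted over whole sections, with neither zone nor depth held. In S4, 315 of 1022 spots had counts of both Calb1 and Pvalb, where the product of their shares gives 329 spots, and in S8 it was 167 of 951 against 185. Calb1 and Calb2 were found together in 126 spots of S4 against 97.0 from the product and in 93 of S8 against 67.3. Calb2 and Pvalb were found together in 71 spots of S4 against 86.0 and in 43 of S8 against 51.0.

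Over 19 sums of a zone and a section and among 11667 genes, the genes most like Calb1 in the spots were Kitl (r = 0.93), the ligand of the Kit receptor, Nptxr (0.93), Sorbs2 (0.91), Bhlhe22 (0.90) and Cacna2d1 (0.89). For Calb2 they were A530084C06Rik (0.89), Gm29771 (0.89), Krt2 (0.85), Dach1 (0.82) and Trh (0.81). For Pvalb they were Hunk (0.90), Kcnc1 (0.90), Camk2g (0.90), Pink1 (0.89) and Dexi (0.88). None of the genes found for Calb1 or Pvalb in the cells was among these. Lists of 5 genes out of 12169 in the cells and 11667 in the spots would rarely share a gene by chance. The cells and spots also used different symbols for some genes, such as Ctgf and Ccn2. Nothing is read from the lack of overlap. By Spearman's rho, 4 of the 5 for Calb1, 0 of the 5 for Calb2 and 3 of the 5 for Pvalb were again among the 5 highest.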

How the data were processed

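The deposited values of both tables are raw counts (whole numbers, not normalized, as read from the values). The submitters' processing notes name Seurat, Space Ranger and the builds NCBIM37 and mm10, with no role, and the counter is not given in the sources used here. The members and all gene lists were chosen with earlier results of these data known. No count column was left without a sample (0). Clusters came from scanpy 1.11.5 (10000 counts per cell, log, 2000 variable genes, 30 components, 15 neighbours, Leiden resolution 1, seed 1). Clusters were named only from fixed marker lists. Levels were compared with edgeR 4.0.16 (filterByExpr, TMM, animal as block) and DESeq2 1.42.0 as alternative, on sums of all cells, or of 5 or more cells of a cluster. The code was tested on simulated data. Each animal supplied all levels. Deviations of sums from the same animal correlated at r = 0.048 to 0.224, and those from different animals at r = -0.2255 to 0.1292, so the ranges overlapped. With the animal as block, the p-values measure the spread of the level differences between 3 animals, not the spread of the animals' own levels. In fits with sums per sample, they measure the spread of those differences between samples, several of them from the same animal. Named genes were the members, the 5 genes most like each, the EF-hand genes called or highest in level, and marker genes where cells or spots hold GABAergic markers. Some genes that these rules name are not reported here.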

Additional observations from a re-analysis of the deposited data

How the results depend on the processing

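Neither Calb1 nor Pvalb was called in any level comparison of all cells under any of the 10 alternatives, and their log2 differences kept direction there. Among the 10, the fit without cells with GABAergic markers removed 0 cells, so it repeats the fit reported and adds nothing. The number of genes called moved. Posterior against anterior gave 14 genes in the fit reported, 109 by DESeq2, 1 with no replicate block and 43 with sums per sample blocked by sample, while leaving out an animal gave 1 to 10. Medium against anterior gave 1 gene, 12 by DESeq2 and 1 to 2 without an animal. Posterior against medium gave 0 genes, 96 by DESeq2, 25 with sums per sample and 0 to 1 without an animal. With no replicate block, the animal pairing changed no call of a member.

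Within clusters DESeq2 called 14 genes in cluster 4 and 4 in cluster 1, and leaving out an animal gave 0 to 1 in clusters 2, 4 and 5 and 0 to 2 in cluster 1. Over these, the log2 difference of Calb1 ran from -2.18 to -0.39 in cluster 1 and from -0.76 to 2.27 in cluster 4. That of Pvalb in cluster 2 ran from -0.58 to 0.38 (0.21 without animal 2), and with no replicate block it was 0.000997, so its sign is not resolved. In cluster 1 the call of Calb1 without animal 3 came with 2 animals left, 1 of them with 6 medium cells.

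Among descriptive values, the share of cells with Pvalb was 10.3% at 10 or more counts, and Calb1 had 1132 CPM in the cluster nearest to cluster 1 at resolution 2. Without centring, Calb1 had 328 and 266 CPM in the regions nearest to zone 3 of S4 and S8, and Calb2 had 105 CPM in that nearest to zone 4 of S4. Of the genes most like a member, Spearman's rho kept 1 for Calb1 and 2 for Pvalb. The cause of these shifts was not tested. No cell had 10 counts of both Gad1 and Gad2, so leaving out such cells removed 0 cells. With 3 animals, shallow cells in animal 1 and few cells per cluster and level, depth and cell number limit the level comparisons.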
